A study of Mus musculus with 24 samples.

Results

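The genes described here are 34 mouse genes of glycolysis and the response to low oxygen, chosen by name from the 45706 genes of the deposited table. They cover glucose entry (3 genes), the six-carbon steps of glycolysis (8), the three-carbon steps (6), pyruvate and lactate handling (5), oxygen sensing (3) and other hypoxia-responsive genes (9). All 34 passed the filter on low counts that left 17233 genes for testing. RNA came from primary embryonic fibroblasts of the mouse (MEFs, connective tissue cells cultured from minced embryos) of a strain labelled C57B1/6, either wild type (WT) or lacking cGAS (KO), the cytosolic DNA sensor encoded by Mb21d1. Both genotypes were passaged under 20% oxygen and sampled on day 33 (passage 11), day 36 (passage 12) and day 42 (passage 14), so all cells were kept at the same oxygen level and no low-oxygen or untreated arm was analysed here. The 24 samples were 4 numbered columns for each genotype and day. The 4 columns of a group differed by no more than sampling error and so count as 1 library, which left 6 libraries: each genotype had 3, and each day of a genotype had 1. The labels do not say that the days were separate cultures, so the p-values reflect only how far these libraries spread, and that spread may be technical.

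Glycolysis splits glucose into pyruvate, and lactate dehydrogenase turns pyruvate into lactate, which leaves the cell through monocarboxylate transporters. When oxygen is low, prolyl hydroxylases such as Egln1 and Egln3 stop marking the factor HIF-1α (gene Hif1a) for destruction, and HIF-1α then binds a short core motif, ACGTG or GCGTG, near many genes of glycolysis and its own hydroxylases. Fibroblasts in culture are known to make much of their ATP by glycolysis even with oxygen present.

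The libraries held 25651250 to 48717439 counts. Mitochondrial genes took 1.1 to 2.38% of the counts in WT and 0.694 to 1.27% in KO. The targeted gene Mb21d1 was at 4.08 to 4.81 CPM (counts scaled to a common library size with TMM factors) in the WT libraries and at 0 to 0.239 CPM in the KO libraries. The 10 fibroblast markers summed to 21200 to 27700 CPM, with none absent and most of the sum from Col1a1, Col1a2 and Vim. Of them edgeR called S100a4 lower in KO (379, 377 and 373 CPM in WT, and 192, 234 and 171 CPM in KO), and DESeq2 called 5 lower: S100a4, Thy1, Dcn, Pdgfra and Pdgfrb. All 10 cell division markers were called higher in KO, at a sum of 572, 576 and 585 CPM in WT against 920, 1070 and 1110 CPM in KO on days 33, 36 and 42. Macrophage markers (9 of 10 passed the filter, Lyz2 the most abundant, with Adgre1, Tyrobp, Lyz2 and C1qa at 0 in KO day 42) summed to 130, 30.2 and 10.5 CPM in WT and to 60.5, 8.5 and 7.12 CPM in KO. Of 10 skeletal muscle markers, 4 passed, Myod1 and Myf5 were at 0 in every library, and the sum, mostly Acta1, was 593, 751 and 436 CPM in WT against 432, 406 and 269 CPM in KO. Division markers were thus higher in KO, while macrophage and muscle sums and several fibroblast markers were lower, and the macrophage and muscle sums were lowest on day 42 in both genotypes. Their part in the results below was not tested. In bulk RNA, fewer cells of a type and less RNA per cell cannot be told apart.

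Slc16a3, which encodes the lactate exporter MCT4, and Egln3, an oxygen-sensing prolyl hydroxylase that is itself induced by HIF, differed at least 2-fold in 4 and 3 single-library comparisons, more than any other member. Pdk1, the kinase that shuts pyruvate dehydrogenase, was lower in 2, and Slc16a1, the lactate transporter MCT1 and the 1 member called higher in KO over the 3 days, is set beside them. The stretches before their start sites are printed 5′ to 3′ on the gene's strand, as the RefSeq promoter table for GRCm38 gives them, leaving out bases in annotated exons. Capitals mark ACGTG or GCGTG on either strand (CACGT or CACGC where it lies on the other strand).
Slc16a3: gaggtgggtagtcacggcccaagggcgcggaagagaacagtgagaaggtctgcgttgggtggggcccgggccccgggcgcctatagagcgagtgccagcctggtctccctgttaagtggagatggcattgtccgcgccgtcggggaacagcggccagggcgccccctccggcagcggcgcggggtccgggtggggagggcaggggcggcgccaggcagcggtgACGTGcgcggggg
Egln3: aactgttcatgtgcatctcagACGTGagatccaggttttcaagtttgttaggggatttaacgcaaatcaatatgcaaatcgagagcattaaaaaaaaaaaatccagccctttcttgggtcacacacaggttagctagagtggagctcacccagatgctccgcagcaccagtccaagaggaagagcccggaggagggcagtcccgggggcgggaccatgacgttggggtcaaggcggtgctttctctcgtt
Pdk1: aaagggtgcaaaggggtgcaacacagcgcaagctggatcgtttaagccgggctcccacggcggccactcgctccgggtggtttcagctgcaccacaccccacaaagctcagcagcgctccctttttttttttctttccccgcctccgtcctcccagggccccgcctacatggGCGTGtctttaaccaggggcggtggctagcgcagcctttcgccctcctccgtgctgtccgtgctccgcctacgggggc
Slc16a1: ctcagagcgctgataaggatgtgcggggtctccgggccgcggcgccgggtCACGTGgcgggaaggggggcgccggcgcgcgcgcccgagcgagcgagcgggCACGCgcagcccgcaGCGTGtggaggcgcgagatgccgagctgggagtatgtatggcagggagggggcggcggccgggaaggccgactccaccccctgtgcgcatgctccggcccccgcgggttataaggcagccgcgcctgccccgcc
These stretches lie at chr11:120948817-120949052 (plus strand, in an intron of a longer annotated Slc16a3 transcript), chr12:54203875-54204124 (minus strand), chr2:71872974-71873223 (plus strand) and chr3:104638414-104638663 (plus strand). Slc16a3 and Egln3 each held 1 ACGTG, Pdk1 held 1 GCGTG, and Slc16a1 held 2 GCGTG and the run CACGTG, which reads ACGTG on both strands and counts as 2 matches. Windows of 300 bases (250 before to 50 after a start) were found for 32 members, of which, in any of their windows, 23 held ACGTG (71.9%), 22 held GCGTG (68.8%) and 29 held either (90.6%). Among the 10649 tested genes with a window, 28.5% held ACGTG, 54.8% held GCGTG and 66.2% held either, and among all 27025 genes with a window 21.8%, 35.2% and 46.7% did. Gpi1, Tpi1 and Eno2 had neither motif in any of their windows. Bnip3l and Ndrg1 had no entry. A match describes the letters and is not evidence of binding.

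Comparing KO with WT over the 3 days (n = 3 libraries each) asks which members differ between the genotypes. The labels do not name separate cultures, so loss of cGAS cannot be told apart from a difference between the cultures used. The spread within a genotype also includes any change with passage. Slc16a1 rose in KO, and Pfkfb3 and Pfkfb4 fell, which are 2 of the enzymes that make and break down fructose 2,6-bisphosphate, the activator of phosphofructokinase. These 1 higher and 2 lower calls among 34 members stand beside 4.07% of all 17233 tested genes called higher and 4.65% called lower (edgeR quasi-likelihood test, Benjamini-Hochberg adjusted p under 0.05). DESeq2 called 1 member higher (all genes 6.98%) and 4 lower (8.6%), and edgeR with day as a factor called 1 higher (3.26%) and 3 lower (4.5%). At an unadjusted p under 0.05 in the edgeR fit without day, 7 members were lower (all genes 14.5%) and 2 higher (all genes 12.8%). Of the 34 log2 fold changes, 27 were negative with a median of -0.26, where 50.9% of all tested genes were negative with a median of -0.01. With library totals in place of TMM factors the median of all genes moved to 0.11 and that of the members to -0.15, and Tpi1 and Pgam1, both within 0.11 of 0, changed direction. Cell division markers differed between the same libraries, with a sum of 572 to 585 CPM in WT and 920 to 1110 CPM in KO, and S100a4 differed the other way. Their part in these differences was not tested.

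Positions are those of the GENCODE M21 annotation on GRCm38. Slc16a1 (ENSMUSG00000032902, chr3:104638668-104658462, plus strand) was at 25.2, 20.5 and 18.5 CPM in WT on days 33, 36 and 42 and at 36.7, 38.2 and 38.9 CPM in KO. Every KO library was above every WT library. The mean was 21.4 ± 3.42 CPM in WT and 37.9 ± 1.1 CPM in KO (SD, n = 3), a log2 fold change of 0.82 (SE 0.13, edgeR adjusted p = 0.0174), or 1.77-fold. Pfkfb3 (ENSMUSG00000026773, chr2:11471433-11554077, minus strand) was at 32.8, 31.8 and 30.1 CPM in WT, against 21.8, 19.2 and 21.6 CPM in KO, without overlap. Its log2 fold change was -0.60 (SE 0.09, edgeR adjusted p = 0.0167), or 1.51-fold lower. Pfkfb4 (ENSMUSG00000025648, chr9:108991778-109032228, plus strand) was at 20.4, 18.5 and 17.4 CPM in WT, against 12.2, 11.5 and 8.62 CPM in KO, again without overlap. Its log2 fold change was -0.80 (SE 0.15, edgeR adjusted p = 0.0301), or 1.75-fold lower. The calls rest on few libraries: Slc16a1 lost its call when WT day 36 or the KO library of day 36 or 42 was left out (adjusted p 0.0549, 0.0853 and 0.0761). Pfkfb3 and Pfkfb4 both lost theirs when either WT library of days 33 and 36, or either KO library of days 36 and 42, was left out (adjusted p 0.0521 to 0.0842 for Pfkfb3 and 0.0724 to 0.115 for Pfkfb4), while the fold changes lay between -0.63 and -0.54 for Pfkfb3 and between -0.90 and -0.66 for Pfkfb4. Other genes acting on the same metabolite, named after their values were seen, did not pass: Pfkfb1 was at 3.46, 3.8 and 3.47 CPM in WT, against 4.4, 5.48 and 5.35 CPM in KO (log2 fold change 0.50, edgeR adjusted p = 0.0929), without overlap. The log2 fold change was -0.29 for Pfkfb2 (adjusted p = 0.369) and 0.02 for Tigar (adjusted p = 0.964) by the same test.

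**Figure D1:**
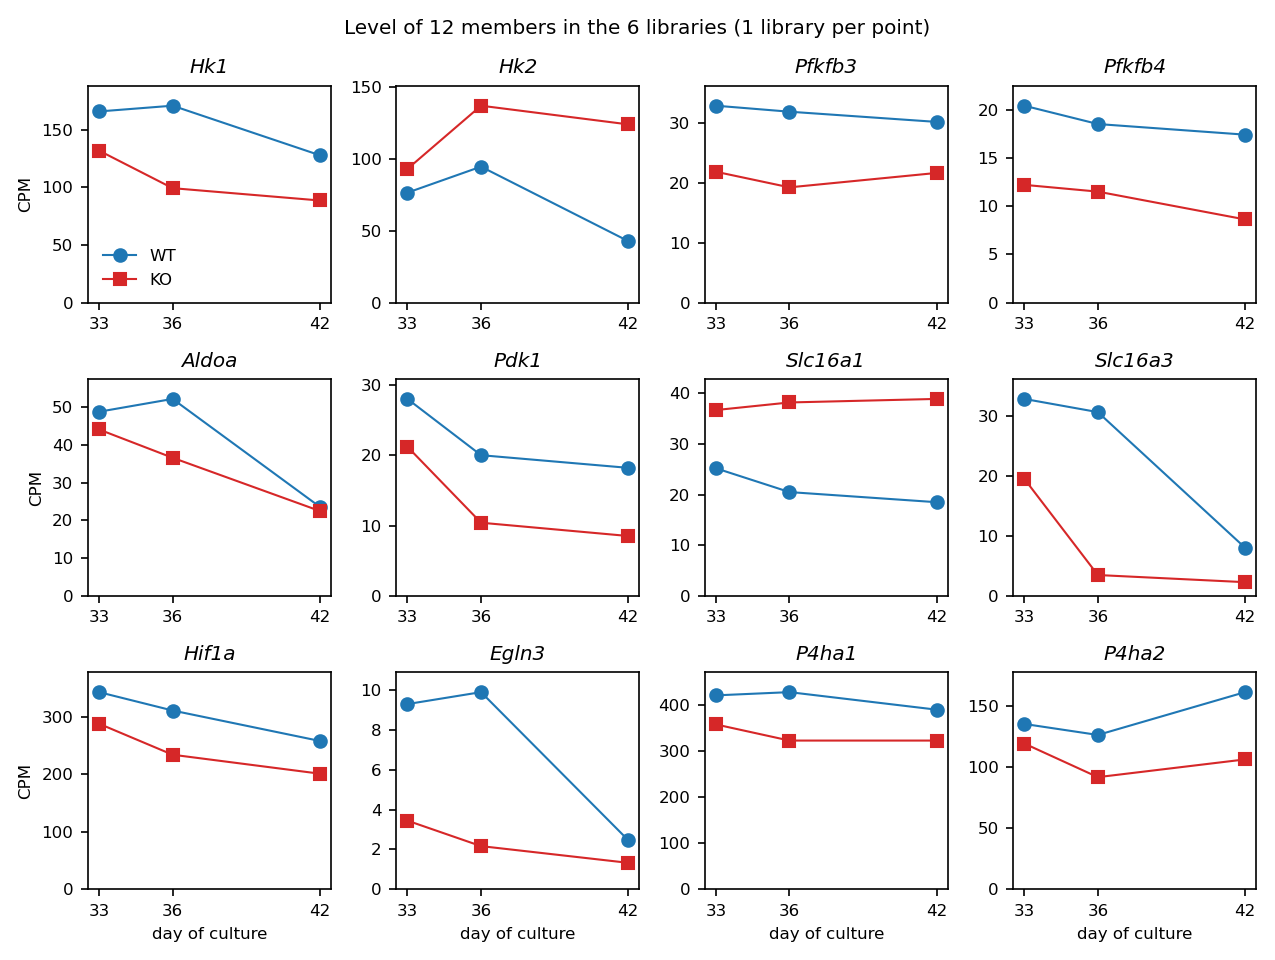
CPM of 12 members (y axis from 0) by day of culture (x axis), 1 library per point, WT as blue circles and KO as red squares. Slc16a1, Pfkfb3, Pfkfb4, P4ha1 and P4ha2 show no overlap between genotypes, and Slc16a3 goes from 30.6 to 8.02 CPM in WT after day 36 and from 19.5 to 3.47 CPM in KO after day 33.

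Glucose entry showed its hexokinases on opposite sides, though neither passed the adjusted threshold. Hk1, the housekeeping hexokinase, was at 166, 171 and 128 CPM in WT, against 132, 99.4 and 88.7 CPM in KO (log2 fold change -0.54, SE 0.18, edgeR adjusted p = 0.121). Without KO day 33 the Hk1 value was -0.72 and passed (adjusted p = 0.0488). Hk2, the inducible hexokinase at the mitochondrial surface, was at 76.5, 94.6 and 42.8 CPM in WT, against 93.0, 137 and 124 CPM in KO (log2 fold change 0.72, SE 0.30, edgeR adjusted p = 0.178). Hk2 was higher in KO on each day, with KO day 33 just under WT day 36. Per kilobase of exon, Hk1 led Hk2 in all 3 WT libraries (19.8, 20.3 and 15.2 against 12.8, 15.8 and 7.15 CPM per kb). In KO the 2 were level on day 33 (15.7 and 15.5 CPM per kb), and Hk2 led on day 36 (22.9 against 11.8) and day 42 (20.6 against 10.6). The length joins the exons of all isoforms (20 transcripts for Hk1 and 4 for Hk2). Orders per length, here and below, therefore depend partly on the annotation. Slc2a1, the glucose transporter GLUT1, overlapped between genotypes, with 78.6 to 130 CPM in WT and 79.1 to 112 CPM in KO.

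Among the six-carbon steps only Pfkfb3 and Pfkfb4 passed. Pfkm, 1 of 3 phosphofructokinase subunits, was at 53.4, 51.0 and 58.8 CPM in WT, against 42.8, 48.7 and 44.5 CPM in KO (log2 fold change -0.26, SE 0.09, edgeR adjusted p = 0.136), without overlap. Pfkp, another subunit, lay above in KO with a very narrow gap on day 36, when both genotypes were at 63.0 CPM (log2 fold change 0.17, SE 0.10, adjusted p = 0.336 by the same test). Pfkl was the highest subunit per length in WT on days 33 and 36 (27.8 CPM per kb on each, against 18.0 and 17.2 for Pfkm and 6.91 and 6.96 for Pfkp), and Pfkm led on day 42 (19.9 against 17.3). In KO, Pfkl led on days 33 and 36 (25.9 and 20.7 CPM per kb) and was level with Pfkm on day 42 (15.1 and 15). Gpi1, the isomerase after hexokinase, was at 122 to 197 CPM in WT and 137 to 161 CPM in KO. Of the aldolases, Aldoa was at 23.6 to 52.2 CPM in WT and 22.5 to 44.1 CPM in KO. Aldoc stayed under 1 CPM in every library (0.401 to 0.875).

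The three-carbon steps gave no call by edgeR or DESeq2, and none was under an unadjusted p of 0.05. Here 5 of the 6 log2 fold changes were negative, from -0.34 (Gapdh) to -0.09 (Pgam1), and Eno1 was at 0.18, with adjusted p from 0.338 to 0.837 (edgeR). Pgk1, phosphoglycerate kinase, had the highest counted level per length of the glycolytic members (54.2 to 82.7 CPM per kb), at 169, 186 and 122 CPM in WT, against 162, 150 and 127 CPM in KO. Tpi1, triose phosphate isomerase, was at 51.0 to 80 CPM in WT and 57.5 to 72.5 CPM in KO. Eno1 lay at 18.2 to 30.5 CPM in WT and 24.1 to 32.0 CPM in KO, and the neuronal enolase Eno2 at 17.1 to 23.9 and 17.3 to 21.8 CPM. Per length the rows of the enolases were close (Eno1 3.38 to 5.94 and Eno2 3.63 to 5.08 CPM per kb), with Eno1 higher in 5 libraries and Eno2 in WT day 42. Of the Eno2 transcript counts, 61.6% fell on 1 retained-intron transcript and 22.2% on coding transcripts (38.8% for Eno1). The Eno1 row also leaves out its copies, so these values do not compare the coding messages.

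Several of these levels may depend on how reads that match several genes were counted, which is not given in the sources used here. That dependence was not tested. Gapdh, usually among the most abundant messages of a cell, was at only 4.33 to 7.51 CPM. Just 0.321% of its transcript counts fell on its 6 protein-coding transcripts (0 to 0.879% in the 6 libraries), and 79.6% fell on 1 retained-intron transcript. Of its 50-base words, 24.7% occur in 218 other genes, and the 106 near-identical copies in the table summed to 0.831 to 1.86 CPM. The Gapdh row therefore rests mostly on counts assigned to retained-intron transcripts. Whether that RNA kept its introns was not tested. Pgk1 shares 53.9% of its words with other genes, chiefly Pgk1-rs7, and its 2 copies in the table held 228 to 357 CPM beside its own 122 to 186. Gm1840, a copy of Gpi1, held 93.6 to 155 CPM. Pgam1 copies held 19.8 to 31.1 CPM beside 14.6 to 24.9 for Pgam1 itself, and Eno1 copies 31.1 to 55.3 CPM beside 18.2 to 32.0. Ldha shares 9.03% of its words with other genes and Ldhb 21%, and the 5 Ldha copies in the table held 2.32 to 4.22 CPM. Levels per length count only what was assigned to a gene's own row. Summing members with such copies (chosen after the low Gapdh value was seen) left 1 member called higher and 2 lower. The called members Slc16a1, Pfkfb3 and Pfkfb4 have no such copy, so their own counts were unchanged and this fit does not check their calls. Slc16a1, Slc16a3, Egln3, Pdk1, Hk1, Hk2 and Pfkfb4 share no such word with another gene. Ankrd37 had none of its counts on its coding transcript and in GENCODE M21 shares 26.4% of its exon bases with Lrp2bp and Ufsp2 on the opposite strand. That model ends 5840 bases beyond the gene as the table has it, so the shared bases may not have been counted, and the strand setting of the counting is not given in the sources used here. Bnip3 overlaps Gm45507 on the opposite strand over 22.3% of its exon bases.

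Transcript shares were described for the 23 members with at least 2 transcripts holding 10% or more of the gene's counts in some library. In Slc2a1 a transcript annotated for nonsense-mediated decay took 70.6 to 74.2% in all 6 libraries, and coding transcripts took 25.8 to 29.4%. In Hif1a the leading coding transcript held 57.9 to 62.1%. Another coding transcript of Hif1a held 35.5, 36.3 and 23.6% in WT and 33.5, 34.2 and 29.7% in KO, lowest on day 42 in each. Pdk1 had 29.9 to 43.5% on its single coding transcript and 48.1 to 67.1% on a processed transcript without a coding frame. The leading coding transcript of Pfkfb4 held 23.2, 34.9 and 45.9% in WT and 20.6, 18.5 and 49.7% in KO, but its estimate was loose: over the 4 columns of KO day 33 alone it ran from 0 to 41.7%. The leading coding transcript of Ldha moved without a split by genotype, at 44.9 to 52.5% in WT and 42.0 to 67.0% in KO. A minor coding transcript of Ldha was at 12.3, 10.2 and 8.67% in WT, against 2.9, 7.95 and 6.75% in KO, without overlap. Its estimate was loose too: over the 4 columns it ran from 4.62 to 11.5% in WT day 42 and from 1.73 to 12.6% in KO day 36. The shares are estimates of the authors' counting, and they carry no test. They are shares of transcript counts, which for some members exceed the count of the gene. In WT day 33 the coding transcripts of Bnip3l held 7225 counts, against 3769 for the gene. For Pgk1 the coding transcript and 1 annotated for nonsense-mediated decay had the same share in each library (46.9 to 47.4%). Such shares may not describe how the gene's own reads divide.

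**Figure D2:**
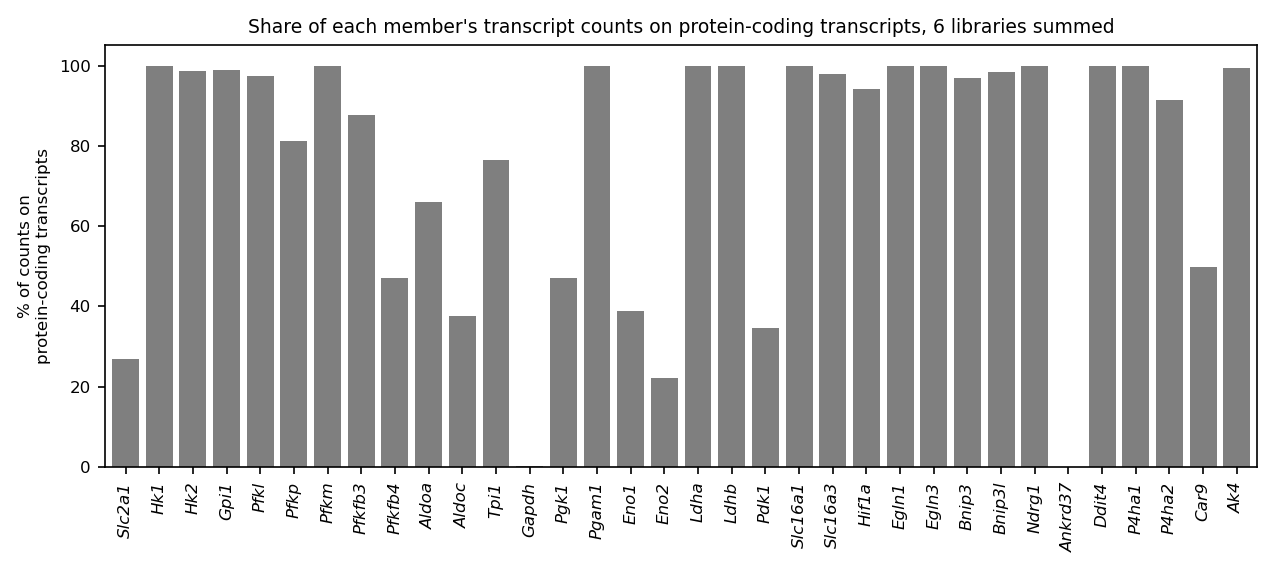
Percent of each member's transcript counts on protein-coding transcripts (y axis, from 0) for the 34 members in order of role, all 6 libraries summed. Transcript counts of some members, such as Bnip3l, exceed the count of the gene, so these are not shares of the gene's own counts. Ankrd37 (0%) and Gapdh (0.321%) stand at the bottom, and Eno2 (22.2%), Slc2a1 (27.0%) and Pdk1 (34.7%) follow.

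Pyruvate and lactate handling held the widest differences between single libraries. With 1 library on each side these have no replicate check and no p-value, and a member was called when it differed at least 2-fold and reached 5 CPM in the higher library. Slc16a3 (ENSMUSG00000025161, chr11:120948480-120960868, plus strand) was at 32.8, 30.6 and 8.02 CPM in WT, against 19.5, 3.47 and 2.28 CPM in KO, from 1535, 1334, 280, 651, 93 and 90 counts. It was lower in KO on each day, by 8.69-fold on day 36 (log2 -3.12) and by 3.46-fold on day 42 (log2 -1.79), while on day 33 the log2 difference was -0.75. Between successive days, KO was 5.54-fold lower on day 36 than on day 33 (log2 -2.47), and WT was 3.79-fold lower on day 42 than on day 36 (log2 -1.92). WT day 42 lay under KO day 33, so the genotypes overlapped, and over the 3 days the log2 fold change was -1.50 (SE 0.90, edgeR adjusted p = 0.338). Without KO day 33 it was -3.06 (adjusted p = 0.05 after rounding, not under the threshold).

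Slc16a1 thus stood opposite to Slc16a3. Per kilobase the 2 lactate transporters were close in WT on day 33 (5.68 for Slc16a1 and 6.15 CPM per kb for Slc16a3) and day 36 (4.63 and 5.74), and Slc16a1 led on day 42 (4.18 and 1.51). In KO, Slc16a1 led on every day, with 8.29, 8.62 and 8.77 against 3.65, 0.651 and 0.428 CPM per kb. Bsg, the chaperone that both transporters need at the membrane (named for that role after its values were seen), was at 538, 580 and 493 CPM in WT, against 419, 451 and 392 CPM in KO (log2 fold change -0.35, edgeR adjusted p = 0.0936). Pdk1 (ENSMUSG00000006494, chr2:71873224-71903858, plus strand) was at 28.0, 20.0 and 18.2 CPM in WT, against 21.2, 10.4 and 8.51 CPM in KO. It was lower in KO on each day (log2 -0.40, -0.93 and -1.09), yet KO day 33 was above 2 WT libraries, and the 3-day difference did not pass (log2 fold change -0.72, SE 0.36, edgeR adjusted p = 0.258). Without KO day 33 it was -1.22 and passed (adjusted p = 0.0343). Of the lactate dehydrogenases, Ldha, whose subunit favours lactate production, was at 13.6, 13.1 and 8.05 CPM in WT, against 15.4, 12.2 and 9.60 CPM in KO. Ldhb was at 20.1, 21.7 and 27.4 CPM in WT, against 14.8, 21.2 and 17.7 CPM in KO, and its row was above that of Ldha per length in every library (9.35 to 17.4 against 2.69 to 5.15 CPM per kb), within the limits on shared sequence above.

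**Figure D3:**
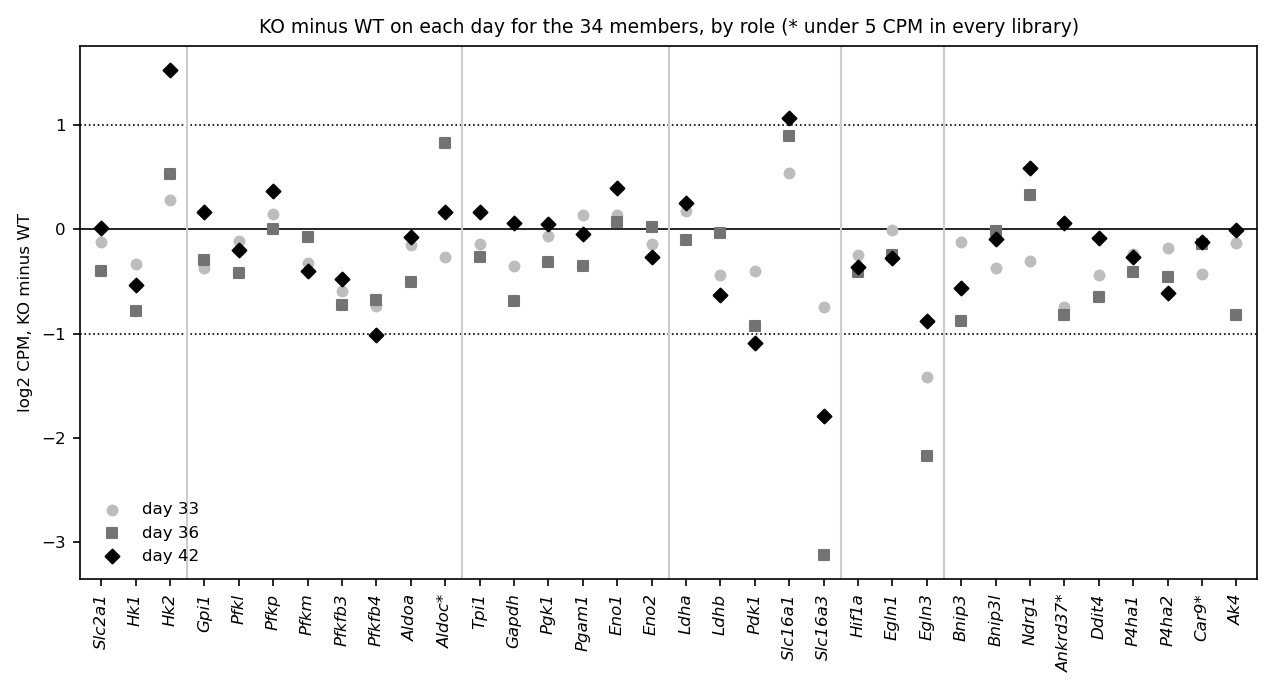
KO minus WT on the log2 CPM scale (y axis) for the 34 members in order of role, with day 33 as light circles, day 36 as grey squares and day 42 as black diamonds; dotted lines mark 2-fold. Slc16a3 reaches -3.12 and Egln3 -2.17 on day 36, and Hk2 reaches 1.53 on day 42.

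All 3 oxygen sensing genes had negative log2 fold changes, and edgeR without a day term called none (1 at an unadjusted p under 0.05, Egln3). Hif1a itself was at 343, 311 and 258 CPM in WT, against 288, 234 and 201 CPM in KO. It was lower in KO on each day but overlapped (log2 fold change -0.34, SE 0.17, edgeR adjusted p = 0.25). HIF-1α is regulated chiefly at the protein level, which was not measured. Egln3 (ENSMUSG00000035105, chr12:54178981-54203860, minus strand) was at 9.30, 9.90 and 2.46 CPM in WT, against 3.44, 2.16 and 1.32 CPM in KO, from 436, 432, 86, 115, 58 and 52 counts. It was 2.68-fold lower in KO on day 33 (log2 -1.42) and 4.49-fold lower on day 36 (log2 -2.17), and on day 42, when neither library reached 5 CPM, the log2 difference was -0.88. Over the 3 days its log2 fold change was -1.65 (SE 0.59, edgeR adjusted p = 0.132), with KO day 33 above WT day 42. The call changed with the fit: edgeR with day as a factor, which pairs the libraries by day, gave -1.52 and an adjusted p of 0.045. DESeq2 gave an adjusted p of 0.0196, and edgeR without WT day 42 gave -2.06 and 0.0354. Egln1, the main oxygen sensor, differed less, with 61.6 to 66.1 CPM in WT and 50.9 to 64.9 CPM in KO (edgeR adjusted p = 0.366), and exceeded Egln3 per length in every library (14.4 to 18.8 against 0.494 to 3.71 CPM per kb).

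Among the 9 hypoxia-responsive members edgeR called none (2 at an unadjusted p under 0.05) and DESeq2 called P4ha1 (adjusted p = 0.0278), and 8 of 9 log2 fold changes were negative with a median of -0.30. P4ha1, the collagen prolyl hydroxylase subunit with the highest level per length of all members by their own rows (78.1 to 103 CPM per kb, leaving out the copies of Pgk1), was at 420, 427 and 389 CPM in WT, against 357, 322 and 322 CPM in KO (log2 fold change -0.30, SE 0.09, edgeR adjusted p = 0.0950). P4ha2, its paralog, was at 135, 126 and 161 CPM in WT, against 119, 91.5 and 106 CPM in KO (log2 fold change -0.41, SE 0.14, edgeR adjusted p = 0.112). Both showed no overlap. Including these, the 3 KO values lay below the 3 WT values in 7 members, Pfkm, Pfkfb3, Pfkfb4, Bnip3l, P4ha1, P4ha2 and Car9 (all tested genes 17.1%), and above them in 2, Pfkp and Slc16a1 (all tested genes 17.3%). Bnip3l, a mitophagy receptor, was at 72.5 to 80.4 CPM in WT and 62.3 to 71.8 CPM in KO, and Bnip3, its relative, was much lower per length (2.04 to 4.72 against 16.1 to 20.8 CPM per kb). Ndrg1 was the 1 member of this group with a positive value (log2 fold change 0.24, edgeR adjusted p = 0.488). Ddit4, an inhibitor of mTORC1, was at 69.3, 90.9 and 48.8 CPM in WT, against 51.2, 57.8 and 46.1 CPM in KO. Ak4, a mitochondrial adenylate kinase, was at 8.22 to 12.2 CPM in WT and 6.30 to 11.2 CPM in KO. Car9, the cell-surface carbonic anhydrase often used as a marker of hypoxia, stayed between 0.783 and 1.11 CPM, and Ankrd37 at no more than 2.02 CPM.

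Across single days, 31 of 34 members could be compared on day 33, where Egln3 alone was called, lower in KO (all genes 4.1% lower, 2.47% higher). On day 36, Slc16a3 and Egln3 were called lower among 31 members and none was called higher (all genes 4.67% and 2.96%). On day 42, among 30 members, Slc16a3, Pdk1 and Pfkfb4 were called lower, Pdk1 by 2.13-fold and Pfkfb4 by 2.02-fold, and Hk2 and Slc16a1 higher, by 2.88-fold and 2.10-fold (all genes 6.50% lower and 3.03% higher). The median log2 difference of the compared members was -0.18, -0.40 and -0.09 on the 3 days. With library totals in place of TMM factors, Pdk1 and Pfkfb4 no longer reached 2-fold on day 42, and Slc16a1 reached it on day 36. In 19 members KO was below WT on every day (27.1% of all tested genes), and in 4 it was above on every day: Hk2, Pfkp, Eno1 and Slc16a1 (27.1%).

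The second comparison followed the members over the 3 days, taking both genotypes together (2 libraries per day, genotype as a term). edgeR called none of 17779 genes for day 36 against day 33, day 42 against day 36 or day 42 against day 33 (0% in each), and so none of the 34 members. At an unadjusted p under 0.05, 2 members were lower on day 36 than on day 33 (all genes 2.34%), 11 were lower on day 42 than on day 36 (6.18%) and 14 were lower on day 42 than on day 33 (6.38%), and no member was higher in any of the 3. DESeq2 called 0, 2 and 6 members lower (all genes 0.147%, 0.863% and 1.24%): Pfkl and Aldoa for day 42 against day 36, and these with Slc16a3, Egln3, Hif1a and Pdk1 for day 42 against day 33. The median log2 change of the members was -0.10, -0.28 and -0.39, with 24, 27 and 29 of 34 negative, where the median of all genes was 0 in each.

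Day 42 was the lowest day in both genotypes for 19 of 34 members, against 20% of all tested genes, and the highest day in both for none, against 20.1% of all genes. These 19 included 9 of the glycolytic enzymes in the six-carbon and three-carbon steps, Slc2a1, Hk1, Ldha, Pdk1, Slc16a3, all 3 oxygen sensing genes, Bnip3 and Ddit4. Aldoa, the main aldolase, went from 48.8 and 52.2 CPM on days 33 and 36 to 23.6 CPM on day 42 in WT, and from 44.1 and 36.6 to 22.5 CPM in KO. Both genotypes ended at nearly the same level, with a log2 change from day 33 to day 42 of -1.01 (SE 0.15, edgeR adjusted p = 0.252). Over the 6 libraries, 66% of the Aldoa transcript counts fell on coding transcripts and 34% on 1 retained-intron transcript. A near-identical copy of Aldoa held 5.95 to 11.6 CPM. Pfkl went from 123 and 123 to 76.5 CPM in WT and from 114 and 91.6 to 66.7 CPM in KO (log2 change -0.73, SE 0.12, edgeR adjusted p = 0.268). Hif1a changed by -0.46 over the same interval (SE 0.11, edgeR adjusted p = 0.303), Egln3 by -1.64 (SE 0.34, adjusted p = 0.292) and Slc16a3 by -2.65 (SE 0.62, adjusted p = 0.322). The summed level of all 34 members was 2520, 2532 and 1978 CPM in WT, against 2202, 2017 and 1825 CPM in KO, lowest on day 42 in each. The sum of the macrophage markers was also lowest on day 42 in both genotypes, at 10.5 CPM in WT and 7.12 CPM in KO. In KO that sum was already at 8.5 CPM on day 36, with Lyz2 at 0.0746 CPM, and Csf1r and Fcer1g were lower on day 36 than on day 42. The part of these markers in the day pattern was not tested.

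**Figure D4:**
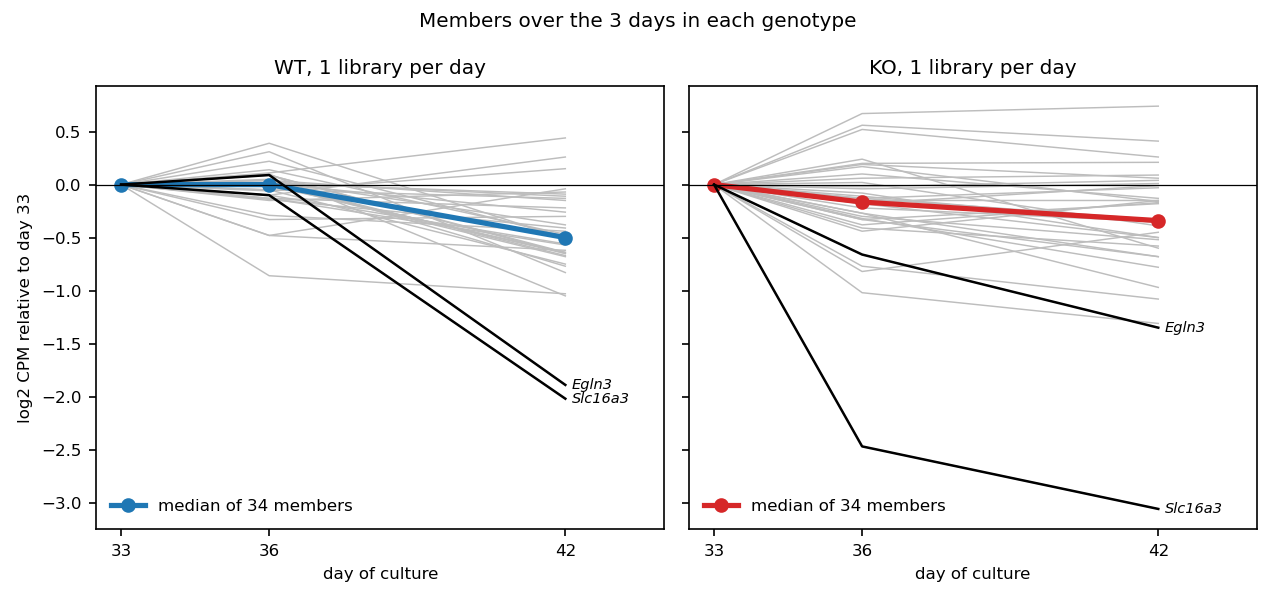
log2 CPM relative to day 33 (y axis) by day of culture (x axis) for the 34 members in WT (left) and KO (right), 1 grey line per member, 1 library per day, the median in colour and Slc16a3 and Egln3 in black. In WT most lines stay near 0 until day 36 and lie lower on day 42, and in KO Slc16a3 is lower by day 36 (log2 -2.47 from day 33).

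The timing differed between the genotypes in single libraries, which have no test. From day 33 to day 36, WT had no member called (all genes 0.995% lower and 0.326% higher) and a median of 0 over 31 members, while KO had Slc16a3 and Pdk1 called lower among 30 (2.33% lower and 1.08% higher) and a median of -0.18. Pdk1 was 2.02-fold lower in that step, and with library totals in place of TMM factors it did not reach 2-fold, as on day 42 between genotypes. From day 36 to day 42, WT had Slc16a3, Egln3, Hk2 and Aldoa called lower among 31, by 3.79-fold, 3.95-fold, 2.21-fold and 2.21-fold (2.48% lower and 4.37% higher), and a median of -0.44. KO had none called among 29 in that step (0.483% lower and 0.414% higher), and a median of -0.20. For Hk2 the log2 step was -1.14 in WT and -0.15 in KO, and for Aldoa it was -1.15 and -0.70.

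Another 106 genes of these pathways were listed by function, with earlier results of these data known. Of them, 98 passed the filter for KO against WT, and 2 were called higher and 3 lower, beside 4.07% and 4.65% of all tested genes. The other glycolysis genes had 1 of 23 tested members lower and none higher. That gene was Bpgm, which makes 2,3-bisphosphoglycerate, at 47.4, 55.7 and 57.6 CPM in WT, against 30.0, 32.2 and 31.2 CPM in KO (log2 fold change -0.78, SE 0.10, edgeR adjusted p = 0.0111). Slc2a12 (log2 fold change -1.73, adjusted p = 0.0558) and Pgm2 (-0.51, adjusted p = 0.0619) had the next smallest p. Eno3, the muscle enolase, differed at least 2-fold in all 4 steps between successive days, at 56.5, 119 and 31.4 CPM in WT, against 32.9, 97.2 and 41.3 CPM in KO, and Slc2a6 was 2.07-fold and 2.09-fold higher in KO on days 33 and 36. Of the other hypoxia genes, 2 of 39 were lower and none higher: Insig2 (log2 fold change -0.52, edgeR adjusted p = 0.0169) and Angptl4, an inhibitor of lipoprotein lipase, at 11.3, 5.34 and 8.76 CPM in WT, against 2.09, 1.49 and 3.67 CPM in KO (-1.80, adjusted p = 0.0466). Stc2 came next (-1.41, adjusted p = 0.0569). DESeq2 called 1 of these genes higher and 8 lower of 40 tested, and 1 higher and 4 lower of 24 other glycolysis genes. Among all genes DESeq2 called 6.98% higher and 8.6% lower. The largest single-library differences among the hypoxia genes were Ppp1r3c from day 36 to day 42 in WT (0.871 to 18.1 CPM) and Tfrc, the transferrin receptor, on day 42 (23.5 CPM in WT and 162 CPM in KO).

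None of 9 other oxygen sensing genes passed (edgeR, 1 at an unadjusted p under 0.05, which DESeq2 called lower). That gene was Epas1, which encodes HIF-2α, at 10.3, 17.0 and 18.1 CPM in WT, against 10.4, 5.52 and 2.64 CPM in KO (log2 fold change -1.29, adjusted p = 0.151). Arnt2 was at 21.4, 33.9 and 53.4 CPM in WT, against 47.4, 69.9 and 70.2 CPM in KO (adjusted p = 0.195), and Siah1a followed (adjusted p = 0.236). None of 15 genes for pyruvate entry into mitochondria passed either (edgeR, 3 at an unadjusted p under 0.05: Pdha1, Pdk3 and Pcx, adjusted p 0.0922, 0.0945 and 0.115), and DESeq2 called Pcx lower. Pdk4 was at 18.3, 17.1 and 32.4 CPM in WT, against 60.3, 20.2 and 25.2 CPM in KO. In the pentose phosphate pathway 1 of 7 was higher, G6pdx, its entry enzyme (log2 fold change 0.42, edgeR adjusted p = 0.0427), while Pgls (-0.23, adjusted p = 0.161) and Rpia (0.24, adjusted p = 0.282) did not pass. In the serine branch 1 of 5 was higher, Shmt1, at 13.3, 11.5 and 10.3 CPM in WT, against 19.5, 26.3 and 29.3 CPM in KO (log2 fold change 1.1, edgeR adjusted p = 0.0202), and Psat1 (0.29, adjusted p = 0.142) and Psph (-0.24, adjusted p = 0.420) did not.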

How the data were processed

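RNA of primary MEFs was column-purified and sequenced from a stranded mRNA kit, per the labels' protocols. The deposited tables, a gene and a transcript table, hold the authors' estimated counts without normalization, per the file headers. Another 24 columns of per-sample values in each table were not used. Bowtie2 2.2.1, limma 3.18.13 and the mouse build mm10 are named by the submitters' processing notes, without their roles. How reads were counted (program, strand, reads that match several genes) is not given in the sources used here.

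The 4 columns of each genotype and day were compared over 12385 to 13738 genes: chi-square per degree of freedom averaged 0.832 to 0.843 (0.996 to 1.05 among genes over 10000 counts), against 9.36 to 73.5 between groups. They were summed to 1 library and rounded to whole numbers. The members, lists and rules were chosen with earlier results of these data known. The main test of KO against WT was that of edgeR 4.0.16 in R 4.3.3 (filterByExpr, TMM, robust quasi-likelihood test, Benjamini-Hochberg adjustment, threshold 0.05), and days with genotype as a further term. Standard errors are the log2 fold change over the square root of F. Single libraries were compared on log2 CPM with a prior count of 2, a fold of 2 and 5 CPM in the higher library. CPM per kb divides by the table's length, which joins the exons of all isoforms.

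The genes given in full are members with an unadjusted p under 0.05 for KO against WT, members called in any comparison, and the highest of each isozyme pair per length. Other lists give up to 3 genes by smallest p and 2 by largest called difference. Positions, transcript types and shared 50-base words come from GENCODE M21 on GRCm38, and promoters from RefSeq. Alternatives tried were other size factors, no filter, limma-voom (limma 3.58.1), DESeq2 1.42.0, day as a term, leaving out libraries, days or columns, 24 columns with and without a replicate block, other prior counts and minimums, and summing copies.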

Additional observations from a re-analysis of the deposited data

How the results depend on the processing

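Of 34 members, 3 were called for KO against WT. DESeq2 called 5 (1 higher, 4 lower), adding Egln3 and P4ha1, and 2812 genes in all against 1503. Leaving out 1 library gave 0 to 5 members and 24 to 1811 genes (254 and 738 genes when WT day 33 or 36 was dropped, 24 and 68 when the KO library of day 36 or 42 was). Leaving out both libraries of day 33, 36 or 42 gave 1, 0 and 1 members and 429, 3 and 539 genes, with fewer samples in each fit. The 24 columns as samples gave 30 members and 11107 genes. With the replicate block, a paired fit on the column numbers, 30 members and 11176 genes were called; these fits measure the sampling noise of 1 library, and the numbers pair nothing in the labels. Library totals only gave 1022 genes higher and 635 lower, against 701 and 802.

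For the days, DESeq2 called 41 genes for day 36 against day 33, 243 genes and 2 members for day 42 against day 36, and 309 genes and 6 members for day 42 against day 33, where edgeR called 0. With library totals only, the log2 change of Slc16a1 and P4ha1 from day 36 to day 42 turned to 0.02 and 0.01, and that of Pfkfb3 from day 33 to day 42 to 0.02, from -0.06, -0.07 and -0.07. Over all 586 alternatives for single members, 526 counted as unchanged, and the cause of the others was not tested. For a test, unchanged means the same direction and side of the threshold. A member that was not called and stayed so in the same direction thus counts as unchanged, and the total does not measure how firm the calls are. For a difference of single libraries it means within counting error of the main value, and for transcript shares within their SD over the libraries. A single-library difference could therefore fall under 2-fold and still count as unchanged. One library per genotype and day limits every comparison of single days.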
